A study of Homo sapiens with 2 samples.

Results

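The integrated stress response is a signalling route that slows protein synthesis when cells lack amino acids or haem, or when proteins misfold in the endoplasmic reticulum. Dedicated kinases phosphorylate the translation factor eIF2, general translation falls, and the transcription factor ATF4 is made and switches on effector genes, often together with partners of the C/EBP family. Phosphatase subunits encoded by PPP1R15A and PPP1R15B remove the phosphate and end the response. In myeloid cells C/EBPβ, a basic leucine zipper factor, is known for its part in granulocyte and macrophage formation.

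C/EBPβ binding was examined at 10 genes of this response, chosen by name: the eIF2 kinase genes EIF2AK1, EIF2AK3 and EIF2AK4, the phosphatase genes PPP1R15A and PPP1R15B, and the effector genes CHAC1, DDIT4, SESN2, VEGFA and NUPR1. The data were a chromatin immunoprecipitation sequencing (ChIP-seq) library from HL-60 cells, a human myeloid leukaemia line labelled as myeloblast, immunoprecipitated with an antibody to C/EBPβ. All cells carried C/EBPβ overexpression, including those of the second library, an input made with no antibody, which was not analysed here. The vector, the level of overexpression and whether the cells were 1 clone are not stated in the labels. There was 1 library of each kind and no replicate, so every value below is a description and no test between samples was possible. The list holds no expression values, so the myeloblast label could not be checked and nothing here says whether a gene's transcript changed.

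The deposited list pairs 7029 peaks with 12532 transcripts whose start lies within 3000 bases of the peak middle. The 10 genes accounted for 46 of its 17637 pairs and 9 of its peaks. Of the 10 genes, 6 had at least 1 listed peak, where 26.5% of 19392 protein-coding genes did. The listed genes were EIF2AK3, PPP1R15A, PPP1R15B, CHAC1, DDIT4 and VEGFA. EIF2AK1, EIF2AK4, SESN2 and NUPR1 had none. The same 6 genes were listed when a peak counted only within 1000 bases (background 20.9%), and 4 of them when only peaks above the median width counted (background 15.4%). Counting a peak only for the start nearest to it (background 23.4%) also kept the 6. That outcome was fixed in advance, because no peak of theirs was shared with another gene. At least 2 peaks were listed at PPP1R15A, PPP1R15B and VEGFA, which is 3 of the 10 genes, against 7.98% of all protein-coding genes and 30.2% of the listed ones. None of the 9 peaks was paired with any other gene, as was also true of 78.4% of all listed peaks. The list gives no peak height or enrichment, the read depth behind it is unknown, and a gene without a listed peak may still be bound below the authors' threshold or farther than the window.

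**Figure D1:**
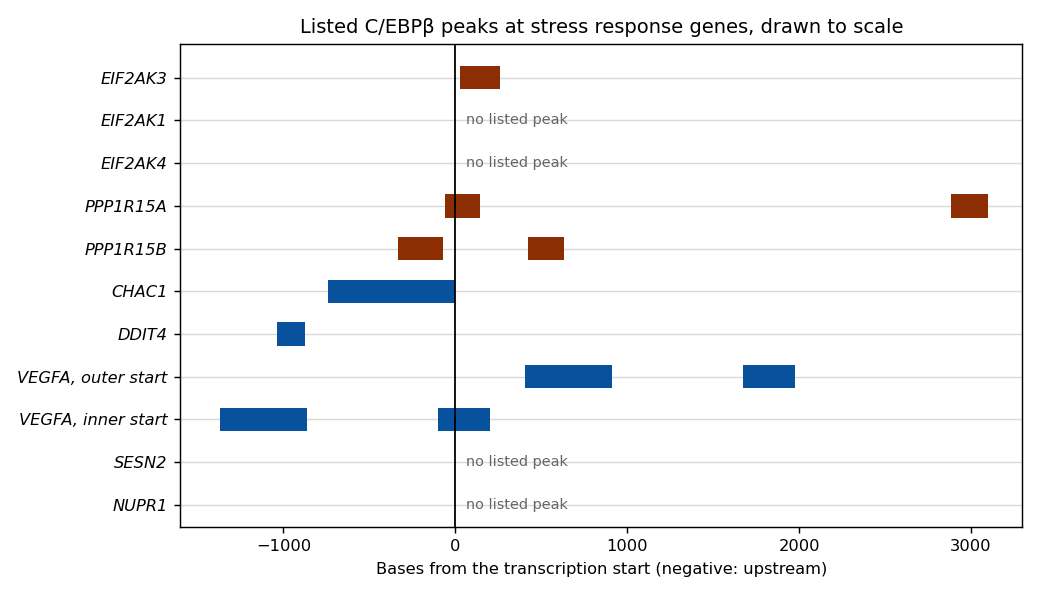
Position of each listed peak (bar, drawn to its width) relative to the transcription start of the gene, in bases, read in the direction of the gene, with kinase and phosphatase genes in brown and effector genes in blue. Peaks cover the start of PPP1R15A and the inner start of VEGFA, the CHAC1 peak ends 3 bases before the start, and 4 genes have no listed peak.

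Among the kinase genes, EIF2AK3 alone was listed, where 26.5% of all protein-coding genes were. EIF2AK3 encodes PERK, the kinase that senses unfolded protein in the endoplasmic reticulum. Its single peak, at 88926832 to 88927067 on chromosome 2 (hg19), was 235 bases wide and its middle lay 145 bases downstream of the start, since the gene is on the reverse strand. The edges fell 28 and 262 bases downstream, so the peak lay wholly inside the transcribed region and did not cover the start. Of the listed protein-coding genes, 33.5% had a peak middle at least as near to a start. EIF2AK1 encodes the kinase HRI, which responds to haem shortage, and EIF2AK4 encodes GCN2, which responds to amino acid shortage; neither was paired with a peak. Of the protein-coding neighbours of EIF2AK1, AIMP2 had 1 listed peak 333 bases from its start and ANKRD61 was not listed. The protein-coding neighbours of EIF2AK4, GPR176 and SRP14, were not listed either.

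Both phosphatase genes were listed, with 2 peaks each. PPP1R15A encodes GADD34, the stress-induced subunit that directs protein phosphatase 1 to eIF2. Its first peak, at 49375586 to 49375795 on chromosome 19, was 209 bases wide and covered the start, reaching from 62 bases upstream to 146 bases downstream. Its middle lay 42 bases downstream, the shortest distance among the 10 genes, and 11.7% of listed protein-coding genes had a peak as near. The second peak, at 49378534 to 49378751, was 217 bases wide and lay 2994 bases downstream, close to the edge of the window. Only 13 of all pairs in the list lay in the last 10 bases of the window, and a slightly smaller window would have left this peak out. The gene spans 3638 bases in the RefSeq table, so by length the second peak falls towards the far end of the gene rather than at its promoter.

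PPP1R15B encodes CReP, the subunit that keeps the same phosphatase active in unstressed cells. Its peaks lay on both sides of the start on chromosome 1. The upstream peak, at 204381018 to 204381278, was 260 bases wide with its middle 203 bases upstream of the start. The downstream peak, at 204380315 to 204380522, was 207 bases wide with its middle 527 bases downstream. A gap of 496 bases separated them and held the start itself. The median gap between neighbouring peaks of a protein-coding gene was 536 bases over 2179 gaps. The gap at PPP1R15A was 2739 bases, larger than 91.1% of those gaps.

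The effector genes differed among themselves in how near and how wide their peaks were. CHAC1 encodes an enzyme that breaks down glutathione and is a known target of ATF4. Its 1 peak, at 41244892 to 41245632 on chromosome 15, was 740 bases wide, the widest of the 9, and only 120 of the 7029 peaks were wider. It ran from 743 to 3 bases upstream of the start that both listed transcripts share, so it filled the proximal promoter and stopped at the start. Its middle lay 373 bases upstream, beyond the median of 265 bases for the nearest peak of listed protein-coding genes.

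DDIT4 encodes REDD1, which restrains the growth kinase complex mTORC1. It had the narrowest of the 9 peaks, 169 bases, at 74032636 to 74032805 on chromosome 10. The middle lay 956 bases upstream of the start, the farthest nearest peak among the 6 listed genes. A distance this large or smaller was seen at 77.9% of listed protein-coding genes, and 20.8% of listed peaks were narrower.

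VEGFA, which encodes the main growth factor for blood vessels and rises in stressed and hypoxic cells, was paired through 19 transcripts with 2 starts 1776 bases apart on chromosome 6. The wider peak, at 43738349 to 43738859, spanned 510 bases, and 435 listed peaks were wider. The second peak, at 43739618 to 43739924, spanned 306 bases. From the outer start, used by 18 of the transcripts, the peak middles lay 659 and 1826 bases downstream, so no peak covered that start. From the inner start, used by 1 transcript, they lay 1117 bases upstream and 50 bases downstream, and the second peak covered it. VEGFA is on the forward strand by general knowledge; the strand table used for the other genes did not hold it. The near position of VEGFA therefore rests on a single annotated transcript, and from the outer start its nearest peak was 659 bases away.

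SESN2 encodes a leucine-binding protein that also restrains mTORC1, and NUPR1 encodes a small stress-induced nuclear protein. Neither was listed. The protein-coding neighbours of SESN2 were both listed, ATP5IF1 with a peak 690 bases from its start and MED18 with 2 peaks, the nearer at 1165 bases. The neighbours of NUPR1, IL27 and SGF29, were not.

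**Figure D2:**
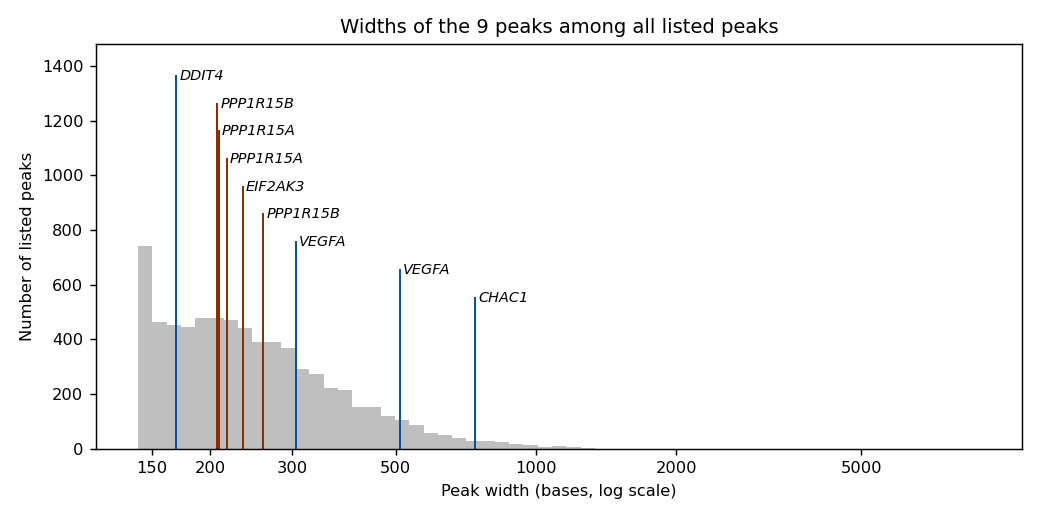
Widths of the 7029 listed peaks in bases on a log axis (grey bars, number of peaks), with a line for each of the 9 peaks at the stress response genes, kinase and phosphatase genes in brown and effector genes in blue; line heights carry no value. The CHAC1 peak at 740 bases and a VEGFA peak at 510 bases stand in the upper tail, and the others lie between 169 and 306 bases around the overall median of 229.

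Across the 9 peaks the median width was 235 bases, against 229 for the whole list, and 5 of the 9 were wider than that overall median. Width ranked the genes differently from distance: the peak nearest a start, at PPP1R15A, was narrower than the median, and the widest, at CHAC1, lay farther from its start than the median nearest peak. The nearest peaks of the 6 listed genes had a median distance of 174 bases, with VEGFA taken from its inner start. With VEGFA taken from the outer start, which 18 of its 19 transcripts use, the median was 288 bases, so it lay below the 265 bases of all listed protein-coding genes in the former case and above it in the latter. By side, the nearest peak lay upstream at CHAC1, DDIT4 and PPP1R15B and downstream at EIF2AK3 and PPP1R15A, and at VEGFA downstream of the inner start. Over 4250 listed protein-coding genes with a known strand, 50.2% had their nearest peak upstream and 49.6% downstream.

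**Figure D3:**
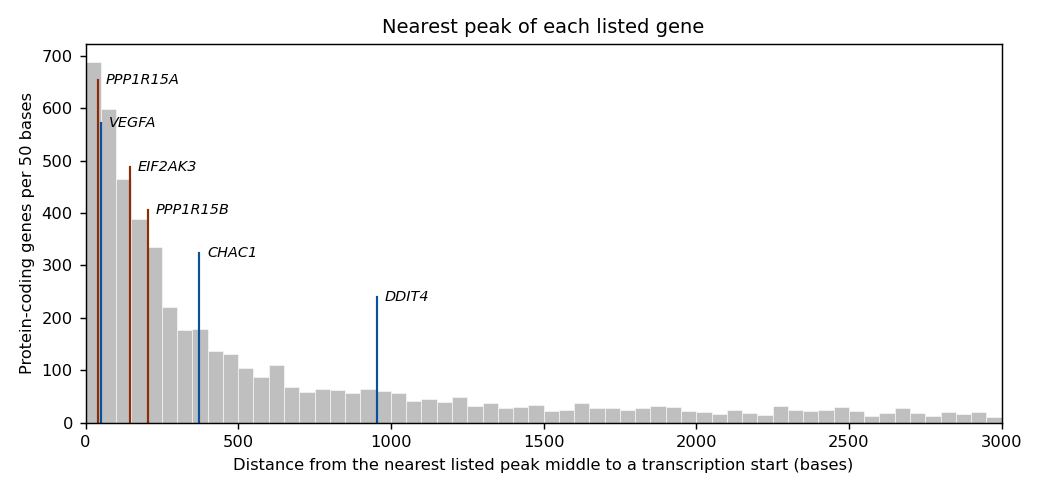
Distance in bases from a transcription start to the middle of the nearest listed peak for all listed protein-coding genes (grey bars, genes per 50 bases), with a line for each listed stress response gene; line heights carry no value. PPP1R15A at 42 bases and VEGFA at 50 bases (inner start) are nearest and DDIT4 at 956 bases is farthest.

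Promoter sequences were then searched for letters that C/EBP and ATF4 are known to recognise. The sequences are those of RefSeq on GRCh38.p14, from 250 bases before to 50 after the start, and 7 of the 10 genes had one; EIF2AK1, NUPR1 and VEGFA did not. No genome of the hg19 build was used, so a match was placed against a peak by its distance from the start, which holds only if both annotations begin the gene at the same base. Both strands were searched. The composite motif TTGCATCA joins a C/EBP end to an ATF end and is the kind of element through which the pair ATF4 and C/EBPβ acts on stress genes. It was present at CHAC1 and PPP1R15B, 2 of the 7 genes, against 0.866% of 35116 promoters and 0.678% of the 15489 protein-coding ones. The looser form TGATGNAA, whose matches include those of the composite, matched the same sites in these genes. It matched 3.62% of all promoters and 2.54% of protein-coding ones. The stretches are shown in the same orientation, with the motif in capitals, from chr15:40953250-40953281 and chr1:204412025-204412056 (both read 5′ to 3′ on the forward strand, which for PPP1R15B is the strand opposite to the gene).
CHAC1: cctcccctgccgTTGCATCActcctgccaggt
PPP1R15B: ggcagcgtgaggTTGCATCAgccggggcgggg
At CHAC1 the motif began 209 bases before the start and lay inside the peak, 534 bases from its upstream edge and 199 from its downstream edge. At PPP1R15B it began 227 bases before the start and lay inside the upstream peak, 106 and 147 bases from its edges. Both placements would survive a shift of up to 106 bases between the annotations.

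The 250 bases before the start are printed for the 3 genes whose peaks reached over a match, 5′ to 3′ on the strand of the gene. Capitals mark TTGCATCA, the C/EBP motif TTGCNNAA and the cyclic AMP response element TGACGTCA, to which ATF and CREB proteins bind, on either strand. CHAC1 is at chr15:40953221-40953470 (forward strand), PPP1R15B at chr1:204411818-204412067 (reverse strand) and PPP1R15A at chr19:48872171-48872420 (forward strand).
CHAC1: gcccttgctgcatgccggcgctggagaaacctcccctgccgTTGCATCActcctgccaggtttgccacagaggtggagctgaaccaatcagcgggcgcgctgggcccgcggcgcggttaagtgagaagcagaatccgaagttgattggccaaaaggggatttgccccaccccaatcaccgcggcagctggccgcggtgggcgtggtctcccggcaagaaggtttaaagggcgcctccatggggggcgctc
PPP1R15B: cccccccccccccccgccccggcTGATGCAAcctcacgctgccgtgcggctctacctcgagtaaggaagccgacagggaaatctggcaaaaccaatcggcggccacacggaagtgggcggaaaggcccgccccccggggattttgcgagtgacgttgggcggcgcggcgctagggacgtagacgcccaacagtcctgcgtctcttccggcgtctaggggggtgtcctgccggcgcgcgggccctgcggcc
PPP1R15A: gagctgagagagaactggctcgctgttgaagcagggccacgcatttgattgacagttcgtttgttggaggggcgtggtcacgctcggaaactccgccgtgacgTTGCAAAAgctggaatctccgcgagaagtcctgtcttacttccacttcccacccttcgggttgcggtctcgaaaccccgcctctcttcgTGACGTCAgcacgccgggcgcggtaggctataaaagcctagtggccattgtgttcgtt
PPP1R15A held TGACGTCA, which 1.85% of all promoters and 2.63% of protein-coding ones hold. The match began 58 bases before the start and lay inside the first peak, but only 4 bases from its upstream edge, so a small shift in the annotated start could place it outside. The same promoter held TTGCNNAA at 147 bases before the start, 78 bases outside the peak, and again from 32 bases after the start, inside it.

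The C/EBP motif TTGCNNAA was present in 3 of the 7 promoters, those of PPP1R15A, EIF2AK3 and SESN2. It was in 10.5% of all promoters and 8.37% of protein-coding ones. EIF2AK3 had it 25 bases before the start, 46 bases outside its peak if both annotations begin the gene at the same base. A shift beyond 46 bases in the annotated start could bring this match into the peak, so its position relative to the peak is uncertain. SESN2, which had no listed peak, had it 221 bases before the start. Both matches are shown from chr2:88627470-88627501 (reverse strand) and chr1:28259285-28259316 (forward strand), with the motif in capitals.
EIF2AK3: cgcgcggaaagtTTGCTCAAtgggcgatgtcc
SESN2: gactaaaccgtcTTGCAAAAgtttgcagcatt
The still looser form TTNNGNAA, which takes in every TTGCNNAA match, was present at 5 of the 7 genes (EIF2AK3, EIF2AK4, PPP1R15A, DDIT4 and SESN2). It was in 36.8% of all promoters and 30.4% of protein-coding ones. The endoplasmic reticulum stress element, CCAAT and CCACG with any 9 bases between them, was in 0 of the 7. It was in 0.0769% of all promoters and 0.123% of protein-coding ones. A match of letters does not show that a factor binds there. The window did not reach the DDIT4 peak.

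To set the 10 genes beside the rest of the pathway, 6 further lists were counted, each against the same 26.5% of protein-coding genes. Of 13 genes for eIF2, its exchange factor eIF2B, the catalytic subunits of protein phosphatase 1 and the related factors EIF2A and EIF2D, 7 were listed. PPP1CC, a catalytic partner of the PPP1R15 subunits, had a peak of 627 bases with its middle 3 bases from the start, EIF2D had one at 35 bases, EIF2S2 at 97, EIF2B4 at 191 and EIF2A at 248. EIF2S1, which encodes the subunit that the kinases phosphorylate, was not listed, nor were EIF2B1, EIF2B2, EIF2B3, EIF2B5 and PPP1CB. Of the 10 genes for the remaining kinase and kinase regulators, 5 were listed: DNAJC3, an inhibitor of the kinases, at 134 bases, NCK1 at 148, TARBP2 at 242, OMA1, the mitochondrial protease upstream of HRI, at 1814, and the chaperone gene HSPA5, whose protein holds PERK inactive, at 2089. EIF2AK2, which encodes the double-stranded RNA kinase PKR, was not listed, nor were GCN1, IMPACT, DELE1 and PRKRA. With EIF2AK2 added to the kinase genes above, EIF2AK3 was the only eIF2 kinase gene in the list, a share close to the 26.5% of all protein-coding genes.

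The list of transcription factors of the response had 9 of 10 genes listed, with ATF5 the exception. It also holds TRIB3, which encodes a pseudokinase and not a transcription factor, and which is counted among the 9. ATF4 had 2 peaks with the nearer 117 bases upstream of its start, and NFE2L2, the antioxidant regulator, had 3 with the nearest peak 285 bases away and 960 bases wide. CEBPB, the overexpressed gene, is in this list with 4 peaks and is likewise counted among the 9. Whether its peaks reflect binding at the native gene was not tested. Of 14 mTORC1 regulators, 4 were listed, which was 28.6% and near the background: TSC1 at 14 bases, NPRL2 at 388, RRAGB at 637 and RHEB, the direct activator of the complex, at 5. TSC2, TBC1D7, NPRL3, DEPDC5, CASTOR1, CASTOR2, SAMTOR, RRAGA, RRAGC and RRAGD were not listed.

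Of 10 paralogs counted outside the 10 genes, 0 had a listed peak. They were EIF2AK2, already counted above, SESN1, SESN3, DDIT4L, CHAC2, NUPR2, VEGFB, VEGFC, VEGFD and PGF. The 5 genes for VEGFA receptors and co-receptors, FLT1, KDR, FLT4, NRP1 and NRP2, also had 0. Thus CHAC1, DDIT4 and VEGFA were listed while CHAC2, DDIT4L and the other VEGF family genes counted were not, and SESN1, SESN2 and SESN3 were all without a listed peak. The labels do not state whether each unlisted gene was among the transcripts that the authors paired with peaks.

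**Figure D4:**
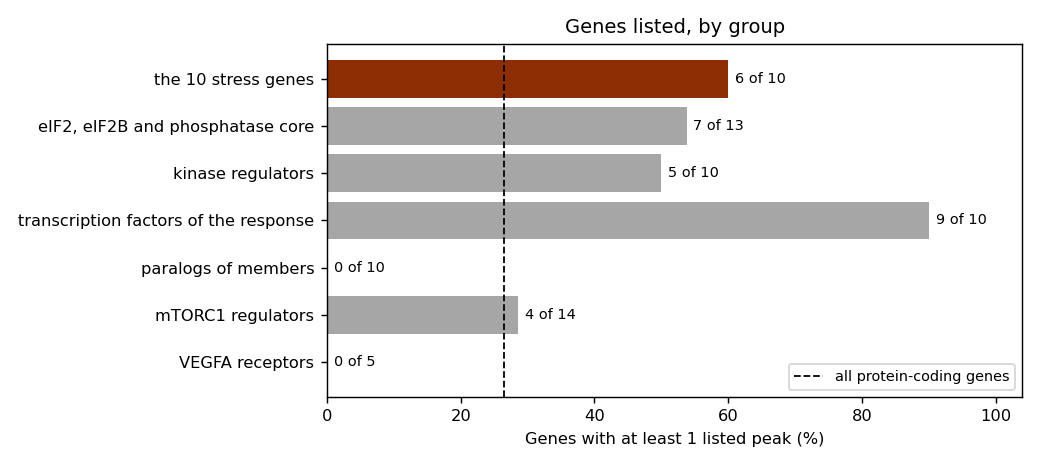
Percentage of genes with at least 1 listed peak for the 10 stress response genes (brown) and 6 related gene lists (grey), with counts, and the 26.5% of all protein-coding genes as a dashed line. The bars run from 0 for the paralogs and the VEGFA receptors to 90.0% for the list of transcription factors of the response. That list also holds the pseudokinase gene TRIB3 and the overexpressed gene CEBPB.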

How the data were processed

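Chromatin of HL-60 cells overexpressing C/EBPβ was sequenced in 1 immunoprecipitated and 1 input library. Per the submitters' processing notes, BWA 0.7.10, SAMtools and MACS2 2.1.1 were used with hg19; the notes give no settings, peak threshold or use of the input. The authors' deposited list pairs peaks with RefSeq transcripts and gives coordinates, a distance and a score. That deposited score follows exactly from the distance (0 of 17637 pairs departed by more than 1e-09), so it was not used as strength. Whether deposited starts count from 0 or 1 is not stated.

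Genes were found by deposited symbol. Of 12532 transcripts, 12331 matched the GRCh38.p14 gene table by accession, 129 by symbol, 55 through an older name, and for the other 17 the authors' symbol was kept. The background was protein-coding genes with a curated transcript on chromosomes 1 to 22 and X. Strand and promoter sequence came from RefSeq on GRCh38.p14; no coordinate was converted. The script's handling of starts, distances and motifs was tested on simulated data. Python 3.11.15, pandas 2.3.3 and NumPy 2.4.6 were used. All 10 genes are named. From each related list, all unlisted and up to 5 nearest listed genes could be named. CEBPB and TRIB3 are named besides, to describe their list. The genes and lists were chosen with earlier results of these data known. Without replicates, no test was run.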

Additional observations from a re-analysis of the deposited data

How the results depend on the processing

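No paired analysis was possible because each group has 1 library. Counting a peak only for the closest start left 6 listed genes and 9 peaks, where 23.4% of protein-coding genes were listed; matching by accession gave the same counts. Within 1000 bases, 6 genes and 8 peaks were listed (background 20.9%). With peaks wider than the median, 4 genes (background 15.4%) and 5 peaks were listed and the median width of the nearest peaks was 283 bases instead of 247.5; PPP1R15A and DDIT4 drop out because their peaks are narrower than that limit. Motif counts among the 7 promoters were the same in the part before the start as in the whole window. Taking only the start with most transcripts of each gene, an alternative chosen after seeing the data, moved the median distance of the nearest peaks from 174 to 288 bases, through VEGFA. Of 38 comparisons with an alternative, 35 kept their value or, for counts, stayed within 1.5 times it. That tally is no measure of robustness, because part of it was fixed in advance. None of the 9 peaks was paired with another gene. Counting only the closest start could therefore not alter the counts of listed genes and peaks, or a gene's nearest distance or width. Genes that dropped out were not counted as changed, and the fall from 6 to 4 genes counted as kept. Read depth and peak strength are unknown, so weak and strong binding could not be told apart.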

Other observations

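The genomic surroundings of the 9 peaks differed. Neighbouring listed peaks were a median of 75.9 kb apart over the whole list. The EIF2AK3 peak stood 2140 kb from the next listed peak at lower positions, that of CHMP3, which is more than 95.4% of such gaps, and 63.8 kb from the peak of RPIA on the other side. The CHAC1 peak lay 21.9 kb from that of DLL4. Peak names carry running numbers, some of which are missing from the list. In the 355 kb between VEGFA and the peak shared by MRPL14 and TMEM63B, 13 numbers were missing. Between the peaks of EIF2AK3 and CHMP3, 7 were missing, so that gap need not be free of called peaks. None was missing between the 2 peaks of PPP1R15A, of PPP1R15B or of VEGFA.

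Over all protein-coding genes with a promoter sequence, the motifs were compared between 2156 and 11239 genes, without a test. The 2156 had a listed peak over the promoter window, placed by distance from a deposited start of the gene. The 11239 had no listed peak. Where a gene had several deposited starts, or the annotations differ, the sequence searched need not lie under the peak. TGACGTCA was in 4.22% and 2.20%, TTGCNNAA in 12.4% and 7.82%, TTNNGNAA in 35.0% and 30.4%, and TTGCATCA in 1.07% and 0.632%. The shares went slightly the other way for the looser composite TGATGNAA, at 2.60% and 2.64%. For the endoplasmic reticulum stress element they were 0.0928% and 0.107%. These shares are 2 and 12 genes, too few to give a direction. TTGCATCA was present in 105 of all 15489 protein-coding promoters, and 34 of the 105 genes (32.4%) had a listed peak, against 27.4% of all genes with a promoter sequence. In the part before the start it was present in 92, of which 24 (26.1%) were listed, below the same 27.4%. Of genes with TGATGNAA, 24.6% were listed for the whole window and 22.3% for the part before the start. CHAC1 and PPP1R15B are among the 34 and the 24. Most genes with the composite motif near their start were not listed, as was true of most protein-coding genes with a promoter sequence.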
